A study of Mus musculus with 8 samples.

Results

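The genes described here make up the machinery that builds and loads MHC class I molecules: the heavy chains H2-K1 and H2-D1, their light chain B2m, the peptide transporter genes Tap1 and Tap2, the loading factors Tapbp and Pdia3, the immunoproteasome subunits Psmb8 and Psmb9, and the trimming peptidase Erap1. They were chosen by name, and 10 of the 55487 genes in the deposited tables carry these names. All 10 had counts in all 8 libraries and were among the 20631 genes tested. Of the 10 genes, 7 lie on chromosome 17, in the mouse MHC region (GRCm38).

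MHC class I molecules show short peptides made inside the cell to CD8 T cells. Proteasomes cut cytosolic proteins into peptides, and cells of the immune system can exchange the catalytic subunits of the standard proteasome for those of the immunoproteasome. The TAP transporter carries the peptides into the endoplasmic reticulum, where a loading complex of tapasin (Tapbp), ERp57 (Pdia3) and calreticulin holds an empty heavy chain with its light chain until a peptide fits, and Erap1 trims peptides that are too long. Conventional dendritic cells of type 1 (cDC1) are known for cross-presentation, in which antigen taken up from other cells is shown on class I, while those of type 2 (cDC2) are better known for presentation on class II.

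RNA was sequenced from cDC1 and cDC2 sorted from the spleens of untreated C57BL/6 mice, 100000 cells per sample. There were 4 groups of 2 libraries: cDC1 from Zeb2 -165(d1+2+3) animals, wild-type cDC1, cDC2 from Irf8 +32-/- animals, and wild-type cDC2. The mutants carry changed regulatory DNA: at Zeb2 an altered enhancer known to be needed for cDC2, and at Irf8 the loss, from both alleles, of an enhancer known to be needed for cDC1. Each mutant was profiled only in the cell type it keeps, so the genotype effects are measured in different cells. The sources used here do not give the age, sex or number of the mice, the sort gates or what a replicate stands for, so the p-values below measure only the spread between these samples, which may be technical. Values are counts scaled to library size with the TMM factors of edgeR (CPM), given for replicate 2 and then replicate 3 of a group, and calls are edgeR quasi-likelihood tests at an adjusted p under 0.05 over all 20631 genes.

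The libraries held 49380686 to 58611821 counts. The summed CPM of 8 cDC1 markers was 6133 to 6683 in the cDC1 libraries and 205 to 238 in the cDC2 libraries, and that of 8 cDC2 markers was 29.3 to 48.5 in cDC1 and 1990.4 to 2172 in cDC2, so both cell type labels matched their markers. Marker sums of other cells also separated the cell types: 11.5 to 22.1 CPM in cDC1 against 5.22 to 10.4 CPM in cDC2 for NK cells, 199 to 295 against 554 to 661 CPM for macrophages and monocytes, and 110 to 121 against 175 to 223 CPM for plasmacytoid dendritic cells. Markers within a list did not all go with its sum. Averaged over wild type and mutant, 2 of 5 tested plasmacytoid markers were called higher in cDC1 and 3 lower. Of 6 macrophage and monocyte markers, 1 was called higher and 5 lower, and of 5 NK markers 3 higher and 0 lower. Of all tested genes, 20% were higher and 21.5% lower. A sum thus need not reflect the number of such cells, and the part of other cells in the cell type differences below was not tested. The wild-type cDC1 libraries differed from each other along gene length (Spearman's rho of 0.391 between length and the log2 difference, replicate 3 minus replicate 2, over 8399 genes; genes are not independent replicates). The same rho was -0.241 in Zeb2 mutant cDC1, -0.142 in Irf8 mutant cDC2 and 2.0e-05 in wild-type cDC2. The length trend touches the short gene B2m most, as given below.

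In cDC1 the genes for peptide transport, peptide loading and immunoproteasome subunits were higher than in cDC2, whereas the genes of the class I molecule itself were not. Pdia3, Tap1, Psmb9, Tap2, Psmb8 and Tapbp passed the test in wild-type cDC1 against wild-type cDC2, by 1.55-fold for Tapbp up to 3.49-fold for Pdia3, and passed it again in Zeb2 mutant cDC1 against Irf8 mutant cDC2, by 1.61-fold for Tapbp up to 3.62-fold for Pdia3. These comparisons share no library. H2-K1 was the only one of the 10 genes lower in cDC1 past the test, in the mutants (0.652-fold) and over all 8 libraries (0.723-fold). In sorted bulk samples, fewer expressing cells and less RNA per cell cannot be told apart.

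Of the 10 genes, 6 were called higher and 0 lower in wild-type cDC1 against wild-type cDC2, where 14.2% of all tested genes were higher and 15.9% lower. Of the genes below 0 there, 1 (H2-K1) had an unadjusted p under 0.05 by edgeR, and DESeq2 called it. In Zeb2 mutant cDC1 against Irf8 mutant cDC2, 6 were higher and 1 lower, where 12.8% of all genes were higher and 15% lower. With the cell type difference averaged over wild-type and mutant libraries (4 against 4), 7 were higher and 1 lower, where 20% of all genes were higher and 21.5% lower. The median log2 fold change of the 10 genes was 0.98, 0.91 and 0.94 in these comparisons, beside 0.03, -0.02 and 0.00 over all tested genes. The averaged comparison uses the libraries of the other comparisons and is no separate evidence. All 4 cDC1 libraries lay above all 4 cDC2 libraries for 7 of the 10 genes, as for 19.6% of all genes, and below them for 1, H2-K1, as for 20.4% of all genes.

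**Figure D1:**
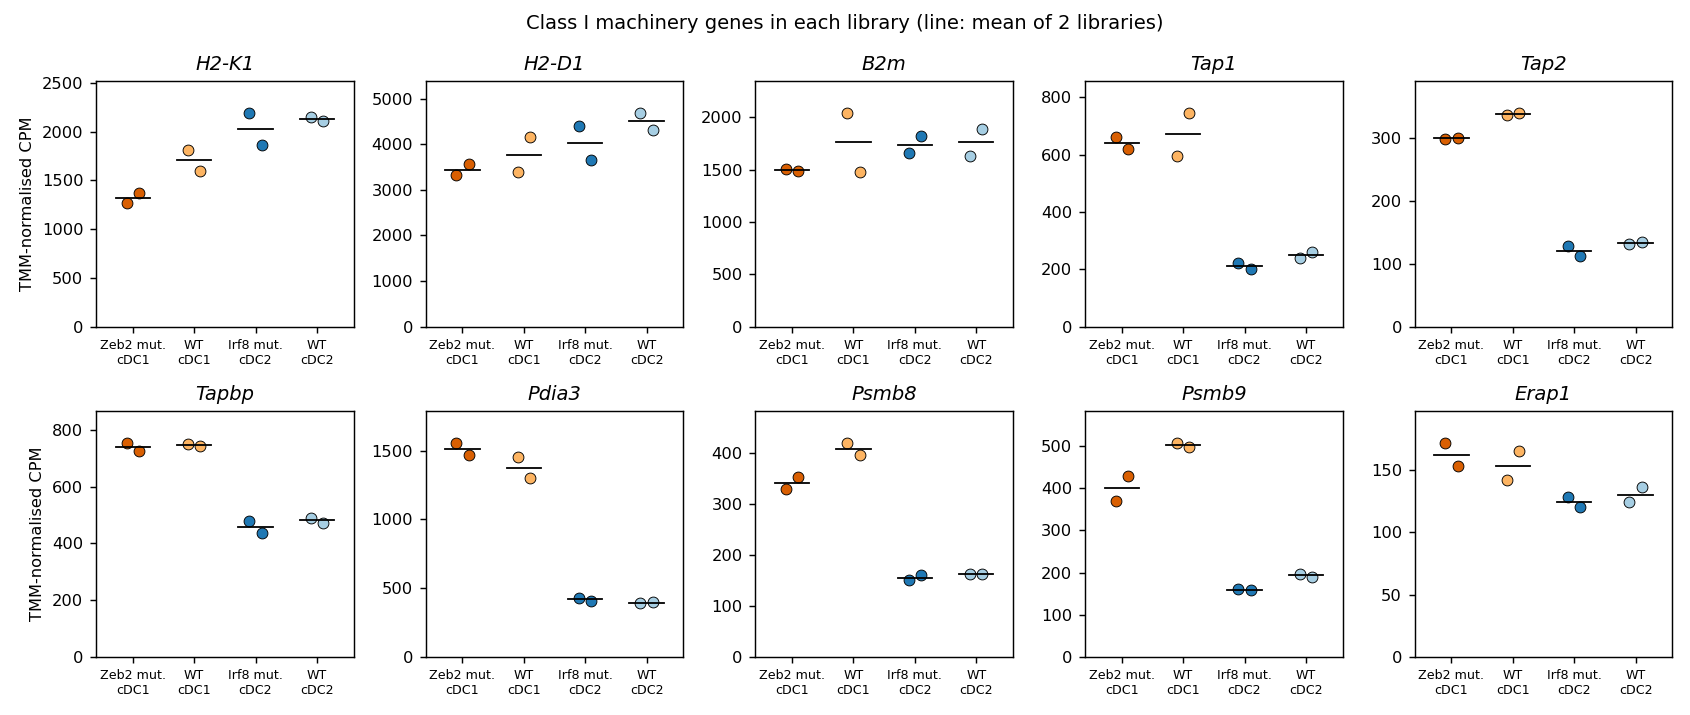
Points are TMM-normalised CPM (vertical axes, from 0) of the 10 genes in each library, by group, with a line at the mean of the 2 libraries. Tap1, Tap2, Tapbp, Pdia3, Psmb8 and Psmb9 separate the 4 cDC1 libraries from the 4 cDC2 libraries with a wide gap, H2-K1 lies lower in cDC1, and H2-D1 and B2m overlap.

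H2-K1 encodes the heavy chain H-2K (ENSMUSG00000061232, chromosome 17, 33996017 to 34000347, minus strand). It was at 1267 and 1376 CPM in Zeb2 mutant cDC1 and 1817 and 1599.8 CPM in wild-type cDC1, against 2192 and 1862 CPM in Irf8 mutant cDC2 and 2154 and 2105 CPM in wild-type cDC2. Every cDC1 library was below every cDC2 library, with the highest cDC1 and the lowest cDC2 library close together. The log2 fold change, cDC1 minus cDC2 averaged over both genotypes, was -0.47 (SE 0.0925, edgeR adjusted p = 0.00217). It was -0.62 between the mutants (SE 0.131, edgeR adjusted p = 0.00525) and -0.32 in wild type (SE 0.131, edgeR adjusted p = 0.0954), where DESeq2 called it lower (DESeq2 adjusted p = 0.0474), as did edgeR without wild-type cDC1 replicate 2 (0.0337). The call between the mutants was lost without Zeb2 mutant cDC1 replicate 2 (edgeR adjusted p = 0.0807) or Irf8 mutant cDC2 replicate 2 (edgeR adjusted p = 0.0809).

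H2-D1 encodes the heavy chain H-2D (ENSMUSG00000073411, chromosome 17, 35262730 to 35267499, plus strand). It was the most highly counted of the 10 genes, at 3318 and 3567 CPM in Zeb2 mutant cDC1 and 3383 and 4163 CPM in wild-type cDC1, against 4403 and 3663 CPM in Irf8 mutant cDC2 and 4685 and 4321 CPM in wild-type cDC2. The cell types overlapped, and the averaged log2 fold change was -0.24 (SE 0.102, edgeR adjusted p = 0.0852), and with 1 library left out it ranged from -0.29 without wild-type cDC1 replicate 3 (edgeR adjusted p = 0.0200) to -0.13 without Irf8 mutant cDC2 replicate 2 (0.454). Of its transcripts' 150-base windows, 1.35% occur also in H2-Q1, and none of the other 9 genes shared such a window with another gene. How reads shared between genes were counted is not stated.

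B2m encodes beta-2 microglobulin, the light chain of all class I molecules (ENSMUSG00000060802, chromosome 2, 122147686 to 122153083, plus strand). It was at 1506 and 1487 CPM in Zeb2 mutant cDC1 and 2042 and 1482 CPM in wild-type cDC1, against 1657 and 1825 CPM in Irf8 mutant cDC2 and 1635 and 1895 CPM in wild-type cDC2. The highest and the lowest of these values were the wild-type cDC1 libraries themselves, so the cell types overlapped. The averaged log2 fold change was -0.11 (SE 0.113, edgeR adjusted p = 0.479), with 95% interval of the fold from 0.778 to 1.10. Without wild-type cDC1 replicate 2 it was -0.24 (edgeR adjusted p = 0.0373), and without replicate 3 it was 0.03 (edgeR adjusted p = 0.797). B2m has 860 exon bases, the fewest of the 10 genes. After removal of each library's length trend, the averaged log2 fold change was -0.52 for B2m (edgeR adjusted p = 0.00107) and -0.35 for H2-D1 (edgeR adjusted p = 0.0301), so both were then called lower in cDC1. For B2m that removal gave -0.48 in wild type (edgeR adjusted p = 0.0156) and -0.55 between the mutants (edgeR adjusted p = 0.00819). Before it, these log2 fold changes were -0.002 and -0.22.

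The class I molecule genes have known control elements just upstream of their start, among them an X2-box, on which the transactivator Nlrc5 acts with its partners, and an element bound by interferon regulatory factors. The 150 bases before the RefSeq start (GRCm38.p6) are shown for the heavy chains and the light chain, because these genes stayed level or lower in cDC1 while the loading genes rose. Capitals mark matches to any of 7 motifs searched on both strands: TGACG (X2-box core), GAAANNGAA and GAANNGAAA (interferon-stimulated response element cores, of which the second was added after the windows were seen and overlaps the first where both fit), GGAANNGAA (ETS-IRF composite core), TTCNNNGAA (interferon gamma activated site), CACCTG (E-box bound by Zeb factors) and GGGANTTCC (kappa-B). H2-K1 has 2 start entries, and the one listed earlier is used. The windows are chr17:34000348-34000497 (minus strand) for H2-K1, chr17:35262944-35263093 (plus strand) for H2-D1 and chr2:122147537-122147686 (plus strand) for B2m.
H2-K1: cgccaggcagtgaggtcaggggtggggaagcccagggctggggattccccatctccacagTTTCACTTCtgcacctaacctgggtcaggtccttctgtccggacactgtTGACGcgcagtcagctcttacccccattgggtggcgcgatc
H2-D1: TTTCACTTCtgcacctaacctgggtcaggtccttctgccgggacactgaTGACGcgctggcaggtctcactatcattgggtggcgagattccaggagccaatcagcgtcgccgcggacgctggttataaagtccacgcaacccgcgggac
B2m: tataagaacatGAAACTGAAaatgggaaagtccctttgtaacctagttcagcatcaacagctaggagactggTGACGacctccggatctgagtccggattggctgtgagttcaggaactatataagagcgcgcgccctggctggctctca

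Each of these windows held TGACG. B2m also held GAAACTGAA, and H2-K1 and H2-D1 both held TTTCACTTC, the other strand of GAANNGAAA, which began 49 bases before TGACG in each of them. In windows of 300 bases, 250 before and 50 after the start, TGACG was found in 6 of the 9 genes with a listed promoter (B2m, H2-D1, H2-K1, Pdia3, Psmb9 and Tap1) and in 20.8% of all 32851 promoters. The Psmb9 and Tap1 windows share 275 bases, and their TGACG is 1 and the same site. GAAANNGAA was found in B2m and Erap1 and in 8.56% of all promoters, and GAANNGAAA in H2-D1 and H2-K1 and in 7.52% of all promoters. TTCNNNGAA was found in Psmb8 and in 8.3% of all promoters. CACCTG was found in Psmb9 and Tap1, again as 1 shared site, and in 20.2% of all promoters. GGAANNGAA (8.24% of all promoters) and GGGANTTCC (1.68%) were in none of the 9 windows. No other spelling of the kappa-B site was searched. The H2-K1 window above holds ggggattcccc, which GGGANTTCC does not match, so the result covers only the letters searched. These matches describe letters in the windows and do not show that a factor binds.

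Tap1 and Tap2 encode the subunits of the peptide transporter TAP. Tap1 (ENSMUSG00000037321, chromosome 17, 34187553 to 34197225, plus strand) was at 662 and 620.3 CPM in Zeb2 mutant cDC1 and 597 and 745 CPM in wild-type cDC1, against 220.2 and 201 CPM in Irf8 mutant cDC2 and 238 and 262 CPM in wild-type cDC2. The lowest cDC1 library stood far above the highest cDC2 library. The log2 fold change was 1.43 in wild type (SE 0.142, edgeR adjusted p = 3.4e-05) and 1.61 between the mutants (SE 0.142, edgeR adjusted p = 1.6e-05). Tap2 (ENSMUSG00000024339, chromosome 17, 34203527 to 34216321, plus strand) was at 298 and 300.0 CPM in Zeb2 mutant cDC1 and 336 and 339 CPM in wild-type cDC1, against 129 and 111 CPM in Irf8 mutant cDC2 and 131 and 134 CPM in wild-type cDC2. Replicates of Tap2 lay close together and the cell types were again apart, with a log2 fold change of 1.35 in wild type and 1.32 between the mutants. Within a library, the ratio of Tap1 to Tap2 in FPKM (CPM per kilobase of exon) was 1.23 to 1.53 in the cDC1 libraries and 1.18 to 1.35 in the cDC2 libraries. These ranges overlapped (exact permutation test over 4 against 4 libraries, two-sided p = 0.114, adjusted p = 0.143 over 5 ratios).

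Tapbp encodes tapasin, which bridges TAP and the empty class I molecule, and Pdia3 encodes ERp57, the disulfide isomerase bound to tapasin. Tapbp (ENSMUSG00000024308, chromosome 17, 33915899 to 33929292, plus strand) was at 753 and 724 CPM in Zeb2 mutant cDC1 and 751 and 742 CPM in wild-type cDC1, against 480.4 and 437 CPM in Irf8 mutant cDC2 and 490.4 and 473 CPM in wild-type cDC2. Tapbp thus separated the cell types in all libraries with a smaller step than TAP, a log2 fold change of 0.63 in wild type (SE 0.115, edgeR adjusted p = 0.00207) and 0.69 between the mutants (SE 0.115, edgeR adjusted p = 0.00128). Pdia3 (ENSMUSG00000027248, chromosome 2, 121413775 to 121438687, plus strand) was at 1555 and 1470.4 CPM in Zeb2 mutant cDC1 and 1457 and 1299.8 CPM in wild-type cDC1, against 429 and 407 CPM in Irf8 mutant cDC2 and 394 and 396 CPM in wild-type cDC2. Pdia3 had the largest difference of the 10 genes in both comparisons, a log2 fold change of 1.80 in wild type (SE 0.122, edgeR adjusted p = 2.3e-06) and 1.86 between the mutants (SE 0.122, edgeR adjusted p = 1.9e-06). Without strand in the library kit, reads in exons that genes on opposite strands share cannot be assigned, and such exons make up 24.9% of the exon bases of Tapbp (with the predicted gene Gm19412), 14.7% of Psmb8, 14.1% and 4.36% of Tap2 and 11.5% of Erap1 (with Cast).

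**Figure D2:**
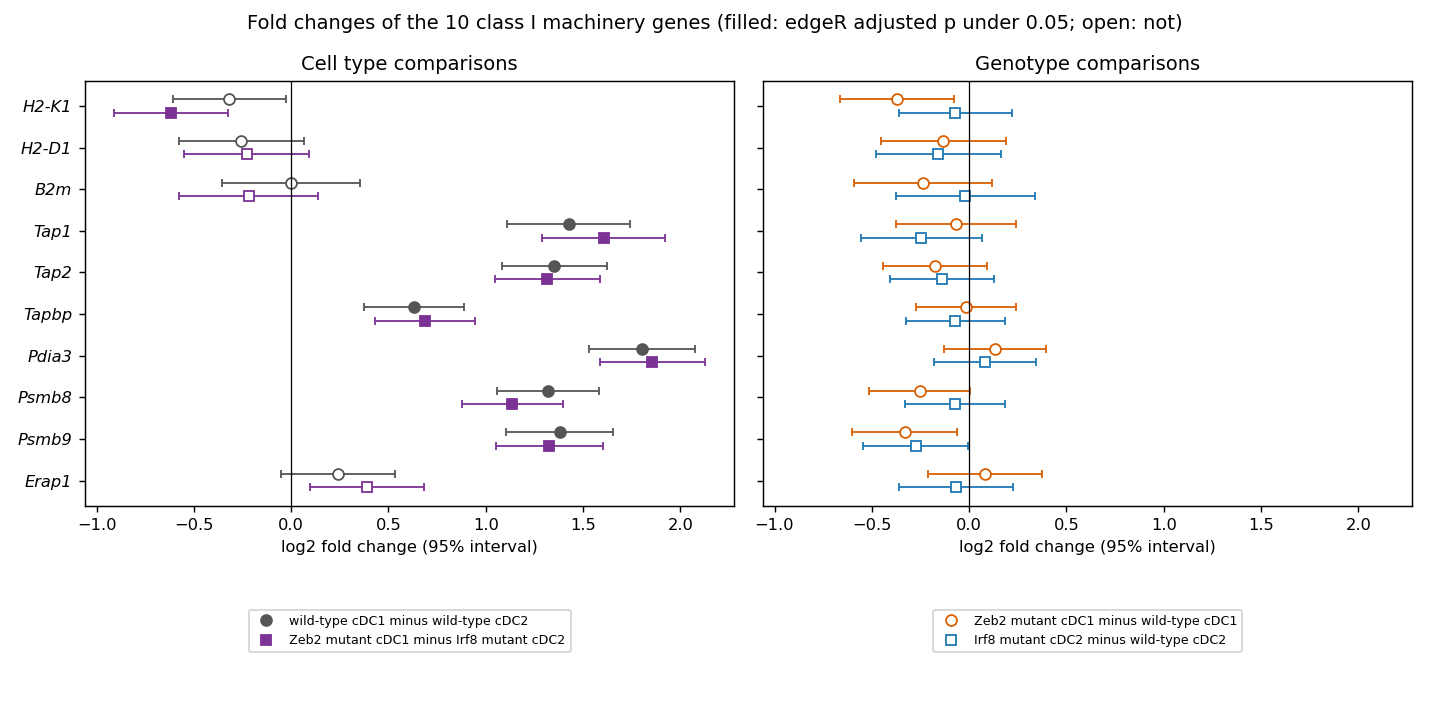
Log2 fold changes (horizontal axis) with 95% intervals for the 10 genes, in the cell type comparisons (left) and the genotype comparisons (right), filled where the edgeR adjusted p was under 0.05. In the cell type comparisons 6 genes stand clear to the right of 0 in wild type and in the mutants, and in the genotype comparisons all points are open, from -0.37 (H2-K1) to 0.13 (Pdia3), both in the Zeb2 mutant.

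Psmb8 and Psmb9 encode the immunoproteasome subunits LMP7 and LMP2, which take the places of the constitutive subunits Psmb5 and Psmb6. Psmb8 (ENSMUSG00000024338, chromosome 17, 34197721 to 34201454, plus strand) was at 329 and 354 CPM in Zeb2 mutant cDC1 and 419 and 396 CPM in wild-type cDC1, against 151 and 159.9 CPM in Irf8 mutant cDC2 and 163 and 163 CPM in wild-type cDC2. Psmb9 (ENSMUSG00000096727, chromosome 17, 34181987 to 34187764, minus strand) was at 369.7 and 431 CPM in Zeb2 mutant cDC1 and 507 and 499 CPM in wild-type cDC1, against 159.8 and 159 CPM in Irf8 mutant cDC2 and 198 and 189 CPM in wild-type cDC2. For both genes every cDC1 library was above every cDC2 library, and the wild-type cDC1 libraries were the highest. The log2 fold change of Psmb8 was 1.32 in wild type (SE 0.118, edgeR adjusted p = 1.6e-05) and 1.14 between the mutants (SE 0.117, edgeR adjusted p = 4.5e-05). That of Psmb9 was 1.38 in wild type (SE 0.124, edgeR adjusted p = 1.65e-05) and 1.33 between the mutants (SE 0.124, edgeR adjusted p = 2.2e-05).

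Psmb9 and Tap1 are read in opposite directions from starts 226 bases apart, so 1 stretch of DNA lies upstream of both, and both genes were higher in cDC1 by similar folds. In the annotation they share 212 exon bases on opposite strands, which is 5.79% of the exon bases of Psmb9 and 3.87% of those of Tap1. The 225 bases between the RefSeq starts are chr17:34187331-34187555 (GRCm38.p6), shown on the plus strand, the strand of Tap1. The capitals mark an E-box match (CAGGTG, the other strand of CACCTG) that overlaps the X2-box core TGACG by 2 bases. The 150 bases before the start of Psmb8, chr17:34198045-34198194 (plus strand), are shown beside it, since Psmb8 moved with them, and the capitals there mark a match to TTCNNNGAA.
Tap1 and Psmb9: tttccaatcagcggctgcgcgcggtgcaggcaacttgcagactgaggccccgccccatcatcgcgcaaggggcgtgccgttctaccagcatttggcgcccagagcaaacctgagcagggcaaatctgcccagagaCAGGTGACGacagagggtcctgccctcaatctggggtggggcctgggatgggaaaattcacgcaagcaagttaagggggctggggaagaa
Psmb8: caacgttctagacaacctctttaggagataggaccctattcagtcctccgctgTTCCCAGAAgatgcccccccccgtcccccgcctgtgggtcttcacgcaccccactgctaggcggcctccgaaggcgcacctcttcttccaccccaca

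The immunoproteasome genes were also compared with the constitutive subunits that they replace, as a ratio of FPKM within each library, which does not depend on library scaling. The size of a ratio depends on the annotated exon lengths, while its fold between libraries does not. A library's trend along gene length does not cancel in a ratio, and no ratio was corrected for it. The ratio of Psmb8 to Psmb5 was 1.46 and 1.44 in Zeb2 mutant cDC1 and 1.31 and 1.60 in wild-type cDC1, against 0.865 and 1.04 in Irf8 mutant cDC2 and 0.859 and 0.986 in wild-type cDC2. The ratio of Psmb9 to Psmb6 was 1.40 and 1.41 in Zeb2 mutant cDC1 and 1.36 and 1.57 in wild-type cDC1, against 0.653 and 0.687 in Irf8 mutant cDC2 and 0.752 and 0.761 in wild-type cDC2. Both ratios were higher in every cDC1 library, by 1.55-fold for Psmb8 to Psmb5 and 2.01-fold for Psmb9 to Psmb6 (geometric means). The exact permutation test over 4 against 4 libraries gave a two-sided p = 0.0286 for each, the smallest that this design allows (adjusted p = 0.0476 over 5 ratios).

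The ratio for the remaining immunoproteasome subunit was lower in cDC1. Psmb10, which encodes the subunit MECL-1, was at 81.2 and 81.5 CPM in Zeb2 mutant cDC1 and 128 and 106 CPM in wild-type cDC1, against 93.6 and 90.3 CPM in Irf8 mutant cDC2 and 107 and 101 CPM in wild-type cDC2. Its averaged log2 fold change between cell types was -0.00 (SE 0.0928, edgeR adjusted p = 0.992), while its constitutive counterpart Psmb7 was higher in cDC1 (log2 fold change 0.91, SE 0.104, edgeR adjusted p = 5.0e-05). The ratio of Psmb10 to Psmb7 was 2.81 and 2.98 in Zeb2 mutant cDC1 and 3.76 and 3.86 in wild-type cDC1, against 5.60 and 5.96 in Irf8 mutant cDC2 and 6.83 and 6.62 in wild-type cDC2. It was lower in every cDC1 library, 0.533-fold over all (exact permutation test, two-sided p = 0.0286, adjusted p = 0.0476 over 5 ratios). With the length trend removed, Psmb10 itself was called lower in cDC1 (log2 fold change -0.22, edgeR adjusted p = 0.0482). The ratio of H2-K1 to H2-D1 was 0.335 to 0.471 in cDC1 and 0.404 to 0.446 in cDC2, with overlapping ranges (exact permutation test, two-sided p = 0.143, adjusted p = 0.143 over 5 ratios).

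**Figure D3:**
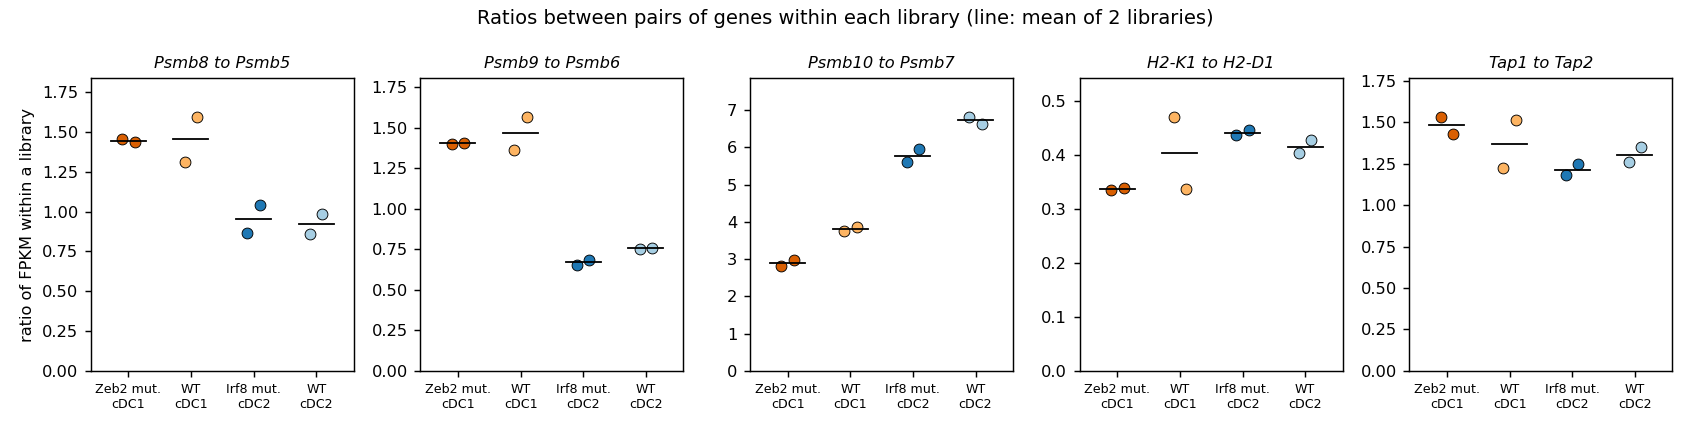
Points are ratios of FPKM between 2 genes within each library (vertical axes, from 0), by group, with a line at the mean of the 2 libraries. Psmb8 to Psmb5 and Psmb9 to Psmb6 are higher in all 4 cDC1 libraries, Psmb10 to Psmb7 is lower in all 4, and the ratios of the heavy chains and of the TAP subunits overlap.

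Erap1 encodes the aminopeptidase that trims peptides in the endoplasmic reticulum (ENSMUSG00000021583, chromosome 13, 74639568 to 74693201, plus strand). It was at 172 and 154 CPM in Zeb2 mutant cDC1 and 142 and 165 CPM in wild-type cDC1, against 128 and 120.5 CPM in Irf8 mutant cDC2 and 124 and 136 CPM in wild-type cDC2. All cDC1 libraries were above all cDC2 libraries, with a small gap. The averaged log2 fold change of 0.31 passed the test (SE 0.0931, edgeR adjusted p = 0.0202), while that in wild type (0.24, edgeR adjusted p = 0.208) and that between the mutants (0.39, edgeR adjusted p = 0.0513) did not. The averaged call was lost without wild-type cDC2 replicate 2 (edgeR adjusted p = 0.0681) or Zeb2 mutant cDC1 replicate 2 (edgeR adjusted p = 0.103). The difference between the mutants passed when only their groups were fitted (edgeR adjusted p = 0.0302) and with DESeq2 (DESeq2 adjusted p = 0.0470). With the length trend removed, Erap1 was called between the mutants (edgeR adjusted p = 0.0147) and in wild type (edgeR adjusted p = 0.0177).

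Levels per kilobase divide by the joined length of all annotated exons of a gene, 860 bases for B2m and 3381 for Psmb8. This length can exceed that of the transcripts made, so the order of genes given here depends on the annotation. Per kilobase of exon, B2m and H2-D1 had the highest values of the 10 genes in all 4 groups. H2-K1 came next in wild-type cDC1 and in both cDC2 groups, while in Zeb2 mutant cDC1 Pdia3 (482 and 522 FPKM at the lowest and highest) lay just above H2-K1 (455 and 482 FPKM). In cDC1 the mean level over 4 libraries was 1945 FPKM for B2m, 1443 FPKM for H2-D1, 529.9 FPKM for H2-K1 and 475 FPKM for Pdia3. In cDC2 these means were 1978, 1602, 685 and 126 FPKM. Tapbp followed in cDC1 with 211 FPKM, then Psmb9 with 127, Tap1 with 124, Psmb8 with 114, Tap2 with 86.7 and Erap1 with 22.4 FPKM. In cDC2, Tapbp was at 126 FPKM, Psmb9 at 46.7, Psmb8 at 45.7, Tap1 at 40.7, Tap2 at 32.3 and Erap1 at 16.9 FPKM. Neighbours whose ranges over libraries overlapped were H2-K1 and Pdia3, Psmb9 and Tap1, and Tap1 and Psmb8 in cDC1, and Tapbp and Pdia3, Psmb9 and Psmb8, and Psmb8 and Tap1 in cDC2. By these means Pdia3 stood next to H2-K1 in cDC1 and next to Tapbp in cDC2.

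The 10 genes took 1.08% and 1.08% of all counts in Zeb2 mutant cDC1 and 1.13% and 1.20% in wild-type cDC1, against 0.951% and 0.888% in Irf8 mutant cDC2 and 0.970% and 0.987% in wild-type cDC2. Of the counts on these genes, H2-K1, H2-D1 and B2m held 59.5% to 63.4% in the cDC1 libraries and 82.2% to 83.0% in the cDC2 libraries. The genes that feed and load the class I molecule therefore held a larger share of these counts in every cDC1 library.

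The enhancer mutants were compared with wild type of the same cell type to see whether the altered enhancers left a mark on class I genes. None of the 10 genes passed the test in either mutant. In Zeb2 mutant cDC1 against wild-type cDC1, edgeR called 0 of the 10 genes, 2 (H2-K1 and Psmb9) had an unadjusted p under 0.05 and DESeq2 called 0, where edgeR called 0.0145% of all genes higher and 0.0533% lower. In Irf8 mutant cDC2 against wild-type cDC2, edgeR called 0 of the 10 genes, 1 (Psmb9) had an unadjusted p under 0.05 and DESeq2 called 0, where edgeR called 0% of all genes higher and 0% lower. Of all 20631 genes, 2176 in the Zeb2 mutant and 1313 in the Irf8 mutant had an unadjusted p under 0.05, and DESeq2 called 158 and 147 of them higher and lower in Zeb2 mutant cDC1, and 76 and 75 in Irf8 mutant cDC2. Without wild-type cDC1 replicate 3, edgeR called 755 higher and 323 lower in Zeb2 mutant cDC1, and still 0 of the 10 genes. The median log2 fold change of the 10 genes was -0.15 in the Zeb2 mutant and -0.07 in the Irf8 mutant, beside -0.03 and 0.01 over all genes.

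Psmb9 had the smallest unadjusted p of the 10 genes when both mutants were averaged. Its log2 fold change was -0.33 in Zeb2 mutant cDC1 (SE 0.122, edgeR adjusted p = 0.388) and -0.28 in Irf8 mutant cDC2 (SE 0.122, edgeR adjusted p = 0.779), and averaged over both it was -0.30 (SE 0.086, edgeR adjusted p = 0.310). In each cell type both mutant libraries of Psmb9 were below both wild-type libraries, in CPM given above. H2-K1 had a log2 fold change of -0.37 in Zeb2 mutant cDC1 (SE 0.131, edgeR adjusted p = 0.372), with both mutant libraries below both wild-type libraries, and -0.07 in Irf8 mutant cDC2 (SE 0.131, edgeR adjusted p = 0.991), where the libraries overlapped. For Tapbp the 95% interval of the fold was 0.829 to 1.18 in Zeb2 mutant cDC1 and 0.798 to 1.14 in Irf8 mutant cDC2.

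Averaged over both mutants, edgeR called 0 of the 10 genes, 2 (H2-K1 and Psmb9) had an unadjusted p under 0.05 and DESeq2 called 0, where edgeR called 0.0388% of all genes higher and 0.0533% lower. For the difference between the effects of the mutants, edgeR called 0 of the 10 genes, 0 had an unadjusted p under 0.05 and DESeq2 called 0, where edgeR called 0% of all genes higher and 0.0194% lower and DESeq2 called 81 genes higher and 81 lower. Both Zeb2 mutant libraries were above both wild-type cDC1 libraries for 1 of the 10 genes and below them for 4, beside 19.2% and 19.8% of all genes. Both Irf8 mutant libraries were above both wild-type cDC2 libraries for 1 of the 10 genes and below them for 4, beside 19.6% and 19.7% of all genes. The summed CPM of 5 neutrophil markers was 58.6 and 84.4 in the Zeb2 mutant cDC1 libraries at the lowest and highest, against 0.445 and 9.54 in wild-type cDC1, and 28.9 and 79.8 in Irf8 mutant cDC2, against 0.236 and 14.0 in wild-type cDC2. None of these markers was at 0 in a whole group. Other marker sums whose libraries did not overlap differed by smaller ratios. In Zeb2 mutant cDC1 against wild-type cDC1, 5 markers of erythroid cells and platelets summed to 6.14 and 8.87 against 2.43 and 4.10 CPM, 5 of T cells to 66.3 and 73.2 against 53.7 and 58.3 CPM, and 6 of macrophages and monocytes to 199 and 206 against 253 and 295 CPM. In Irf8 mutant cDC2 against wild-type cDC2, 5 NK cell markers summed to 5.22 and 6.63 against 8.26 and 10.4 CPM. There, 6 markers of plasmacytoid dendritic cells summed to 175 and 197 against 208 and 223 CPM, and 5 of B cells to 20.4 and 26.6 against 27.5 and 31.6 CPM. Within a list, markers did not always follow the sum. In the Zeb2 mutant, 5 of 5 erythroid and platelet, 5 of 5 T cell and 3 of 6 macrophage and monocyte markers had a positive log2 fold change. In the Irf8 mutant, 0 of 5 NK cell, 1 of 5 tested plasmacytoid and 3 of 5 B cell markers did. Of all genes, 47.0% and 51.2% had a positive one. EdgeR called 0 of these markers. The sum of the 8 cDC2 markers was also lower in both mutants. It was 29.3 and 32.5 against 34.4 and 48.5 CPM in cDC1, and 1990 and 2024 against 2080 and 2172 CPM in cDC2. In each mutant, 3 of these 8 markers had a positive log2 fold change and 5 a negative one. EdgeR called 1 of them lower in the Zeb2 mutant and 0 in the Irf8 mutant, beside 0.0533% and 0% of all genes. The part of cells with these markers in the genotype values was not tested.

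The other genes of the class I pathway were counted in 6 lists, of which 74 genes were tested, in the comparison of cDC1 with cDC2 averaged over genotypes, where 20% of all tested genes were higher and 21.5% lower and the median log2 fold change of all genes was 0.00. Partners of the loading complex and of quality control in the endoplasmic reticulum were called higher in 6 of 9 cases and lower in 1, with a median log2 fold change of 0.38. How many of them were called higher varied with a library left out. Tapbpl, a relative of tapasin that edits peptides (1.57), Calr, which encodes the chaperone calreticulin (1.27), and Hspa5, which encodes the chaperone BiP (1.17), were higher, and Lnpep, a peptidase of endosomes, was lower (-0.68). Calr was at 994 and 930.4 CPM in Zeb2 mutant cDC1 and 1114 and 1056 CPM in wild-type cDC1, against 440.0 and 401 CPM in Irf8 mutant cDC2 and 453 and 398 CPM in wild-type cDC2. Like Pdia3, Calr was clear of the other cell type in every library.

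Of 7 further genes of the immunoproteasome, thymoproteasome and proteasome activators, 4 were called higher and 0 lower (median log2 fold change 0.31). With the length trend removed 1 of them, Psmb10, was called lower, as given above. The called genes were Pomp, the chaperone that assembles proteasomes (1.70), the activator subunits Psme1 (1.19) and Psme2 (0.93), which form PA28 and are induced by interferon gamma, and the nuclear activator Psme3 (0.31). All 14 subunits of the constitutive 20S proteasome were called higher in cDC1, with a median log2 fold change of 0.59 and Psma3 (1.08), Psma5 (1.07), Psmb7 (0.91) and Psma4 (0.80) at the top. In wild type 13 of the 14 were called higher and between the mutants 9, where 14.2% and 12.8% of all genes were higher, and all 14 had a positive fold change in each. The rise of proteasome genes thus covered constitutive subunits as well as Psmb8 and Psmb9. In the averaged comparison with the length trend removed and a replicate block, 9 of the 14 were called.

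Among other class I and class I-like heavy chains, 4 of 17 tested genes were called higher and 5 lower (median log2 fold change -0.10), shares near those of all genes, and 3 were lower without wild-type cDC2 replicate 2 or Zeb2 mutant cDC1 replicate 3. Cd1d1, which presents lipids to NKT cells (2.10), H2-M5 (2.09) and Fcgrt, the neonatal Fc receptor (1.12), were higher, and H2-M2, an uncommon class I-like heavy chain, was lower (-3.36). H2-M2 was also the only gene of the 6 lists that edgeR called in a genotype comparison. It was at 5.68 and 4.81 CPM in Zeb2 mutant cDC1 against 18.3 and 15.9 CPM in wild-type cDC1, with all values under those of cDC2 (123 and 82.2 CPM in Irf8 mutant cDC2, 90.4 and 94.3 CPM in wild type). Its log2 fold change in the Zeb2 mutant was -1.70 (SE 0.200, edgeR adjusted p = 0.0185), and the call was lost without Zeb2 mutant cDC1 replicate 2 (edgeR adjusted p = 0.0717) or replicate 3 (0.0863), with the length trend removed (0.0717) and with only these groups in the fit (0.165). The test of its difference between the mutants gave an edgeR adjusted p = 0.113.

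Of 16 regulators of class I genes, 2 were called higher and 8 lower (median log2 fold change -0.23). Leaving out 1 library gave as many as 4 higher (without wild-type cDC1 replicate 2) and as few as 5 lower (without either wild-type cDC2 library, Zeb2 mutant cDC1 replicate 3 or Irf8 mutant cDC2 replicate 2). Irf8, an interferon regulatory factor on which cDC1 depend, was higher (4.83), and the NF-kappaB subunits Nfkb1 (-1.86) and Rela (-0.99) and the X-box factor Rfx5 (-0.92) were lower. Nlrc5, the transactivator named for class I genes, was at 226 and 216 CPM in Zeb2 mutant cDC1 and 165 and 254 CPM in wild-type cDC1, against 231 and 161 CPM in Irf8 mutant cDC2 and 167 and 188 CPM in wild-type cDC2. Its libraries overlapped between cell types, with a log2 fold change of 0.20 (SE 0.152, edgeR adjusted p = 0.319). It is named here after its values were seen. Of 11 cytosolic peptidases and other genes of peptide supply, 5 were higher and 1 lower (median log2 fold change 0.34), with Lap3, an aminopeptidase (1.56), Sec61a1, the pore of the translocon (0.85), and Nln, an endopeptidase (0.79), higher, and Tpp2, a large cytosolic peptidase, lower (-0.51).

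**Figure D4:**
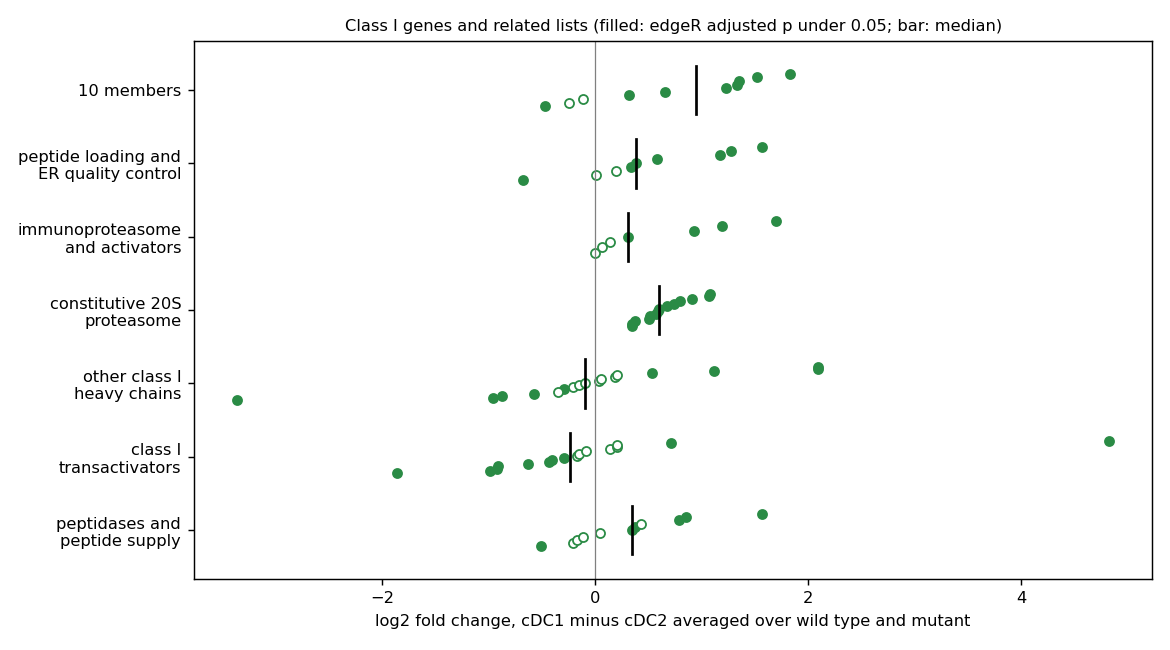
Each point is a gene's log2 fold change (horizontal axis) for cDC1 minus cDC2 averaged over wild-type and mutant libraries, for the 10 genes and the 6 related lists, filled where the edgeR adjusted p was under 0.05, with a bar at the median of each list. All 14 constitutive 20S proteasome genes lie to the right of 0, between 0.34 and 1.08, while the other class I heavy chains and the transactivators spread to both sides.

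Among 8155 protein-coding genes that averaged 10 CPM or more, those whose log2 CPM followed Tap1 most closely over the 8 libraries were Cptp, a ceramide-1-phosphate transfer protein (Pearson's r of 0.996), the hexokinase gene Hk3 (0.996) and the mitochondrial sodium and calcium exchanger gene Slc8b1 (0.995). For Psmb9 these were the actin-binding protein gene Dbnl (0.998), the RNA cyclase gene Rtca (0.995) and Rtl8b (0.995). The 8 libraries fall into the 2 cell types, so these values describe mainly the difference between them, and they carry no test.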

How the data were processed

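The data are 8 RNA-seq libraries in 4 groups of 2. Per the labels' protocols, 10 ng of RNA with an integrity number over 8.0 entered the SMARTer Ultra Low kit, which does not mark strand, and fragments were read from both ends for 150 bases. The submitters' processing notes name STAR, featureCounts of Subread, Salmon and bcl2fastq, and the build GRCm38 (mm10). The strand setting and how shared reads were counted are not given in these sources. The authors deposited a count for each gene, in whole reads. The deposited CPM divides each count by its library's total, and the deposited FPKM divides CPM by exon length in kilobases. TPM was also deposited and was not used.

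Gene symbols came from GENCODE M21, which held 55227 of 55487 gene IDs. The counts were analysed with edgeR 4.0.16 (R 4.3.3): filterByExpr kept 20631 genes, libraries were scaled with TMM, and a robust quasi-likelihood model with 1 coefficient per group was fitted over all 8 libraries (4 residual degrees of freedom, common biological coefficient of variation 0.286). P-values were adjusted by Benjamini-Hochberg over all tested genes in each of 7 comparisons. The model was also run on counts simulated from its own dispersions with known changes. Those counts held no length trend, so that run does not speak to the trend in these libraries. Within-library ratios use the deposited FPKM with no pseudocount. Folds are fitted group ratios and intervals are 95%. Promoters and their sequences are from RefSeq (GRCm38.p6), with entries for 9 of the 10 genes and not for Tap2. The depth of 49380686 to 58611821 counts gave each of the 10 genes 5463 to 257645 counts per library.

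The 10 genes, the 6 related lists, the markers and 6 of the 7 motifs were chosen with earlier results of these data known, and 1 motif was added after the promoters were read. All 10 genes are named, with at most 4 called genes per related list (the largest changes between cell types, or called in a genotype comparison), the proteasome counterparts used for ratios, and the 3 genes most like Tap1 and Psmb9. Alternatives were DESeq2 size factors in edgeR, the DESeq2 1.42.0 Wald test, no filter on low counts, a replicate block, removal of each library's length trend, both together, only the compared groups, leaving out each library, and a pseudocount of 1 for ratios. The sequences of the proteins were not analysed here.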

Additional observations from a re-analysis of the deposited data

How the results depend on the processing

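The 6 higher calls (Pdia3, Tap1, Psmb9, Tap2, Psmb8 and Tapbp) were made in wild type and between the mutants under every alternative run, and 0 of the 10 genes were called in a genotype comparison under any of them. Erap1 was the only other gene of the 10 called higher in cDC1, and only under some settings. The number of the 10 genes called lower in cDC1 varied. In wild type it was 0, and 1 with DESeq2, 2 with the length trend removed, 2 with that and a replicate block, and 0 to 1 with a library left out. Between the mutants it was 1, and 2 with the length trend removed, 2 with that and a replicate block, and 0 to 1 with a library left out. Averaged it was 1, and 3 with the length trend removed, 3 with that and a replicate block, and 1 to 2 with a library left out. The extra lower calls came without wild-type cDC1 replicate 2 or 3, and the lost call without Zeb2 mutant cDC1 or Irf8 mutant cDC2 replicate 2. The cause of these shifts was not tested.

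In the related lists, the length trend removed gave 1 lower gene among immunoproteasome genes, and a replicate block with it gave 9 higher constitutive 20S genes. DESeq2 size factors and the DESeq2 test gave 2 lower genes of peptide supply each. With a library left out, lower genes numbered 3 to 5 among other heavy chains (3 without wild-type cDC2 replicate 2 or Zeb2 mutant replicate 3), 5 to 8 among regulators (5 without either wild-type cDC2 library, Zeb2 mutant replicate 3 or Irf8 mutant replicate 2) and 1 to 2 in peptide supply, and higher regulators 2 to 4 (both at most without wild-type cDC1 replicate 2).

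The ratio differences (log2) kept their size with a replicate block, at 0.632 for Psmb8 to Psmb5, 1.011 for Psmb9 to Psmb6 and -0.908 for Psmb10 to Psmb7 (adjusted p = 0.0926, exact permutation within replicate numbers). With a library left out they ranged from 0.585 to 0.683, from 0.967 to 1.043 and from -0.981 to -0.828 (adjusted p = 0.0571 to 0.0952, exact permutation). The smallest p that these designs allow is 0.0556 with the block and 0.0571 with a library left out. The replicate numbers share nothing stated and did not pair the samples (correlations of deviations between groups of -0.183 to 0.0691 over 8399 genes), and a block on them moved no call of the 10 genes. A block with the wild-type cDC1 numbers crossed, added after seeing the data, called 6 genes higher and 13 lower of all genes in the Zeb2 mutant, against 3 and 11 without a block.

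With 2 libraries per group, the 95% intervals of the 10 genes' folds for each mutant against wild type lay between 0.632 and 1.32.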

Other observations

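A few related genes were called by DESeq2 in the genotype comparisons, and of these edgeR called only H2-M2, in the Zeb2 mutant. In Zeb2 mutant cDC1 against wild-type cDC1, DESeq2 called 3 of the 74 related genes: H2-M2, Psmb10 and Cd1d1. Psmb10 was at 81.2 and 81.5 CPM in the mutant, against 128 and 106 CPM in wild-type cDC1 (edgeR adjusted p = 0.234). Cd1d1 was at 149.6 and 154 CPM in the mutant, against 255 and 198 CPM in wild-type cDC1. For the difference between the effects of the mutants, DESeq2 called Cd1d1 and H2-M2. Averaged over both mutants, DESeq2 called 4 of the 74 genes (H2-M2, Psmb10, Irf1 and Nfkb1) and edgeR called 0. There DESeq2 called 149 of all genes higher and 146 lower. The regulators Irf1 and Nfkb1 were lower, each with an unadjusted p under 0.05 by edgeR. In Irf8 mutant cDC2 against wild-type cDC2, DESeq2 and edgeR called 0 of the 74 genes, and 3 had an unadjusted p under 0.05 by edgeR. These genes were named after their values were seen.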
